A study of Mus musculus with 6 samples.

Results

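The genes described here write, read and erase DNA methylation, together with Ezh2, and were read in regulatory T cells (Tregs), a CD4 T cell lineage that holds immune responses in check. They were chosen by symbol as Dnmt1, Dnmt3a, Dnmt3b, Uhrf1, Tet1, Tet2, Tet3, Mbd2 and Ezh2, and all 9 are among the 23725 genes of the deposited tables. The libraries compared were 3 from MOG KO mice, which lack myelin oligodendrocyte glycoprotein (MOG, a protein of the myelin sheath), and 3 from wild-type (WT) mice. Both groups were C57Bl/6 mice immunised with MOG, and the Tregs came from their lymph nodes. Each library was made from the total RNA of 500 cells with 15 cycles of PCR. The age of the mice, the markers by which Tregs were isolated and whether each library is a separate mouse are not stated in the labels, so p-values measure only the spread between these libraries, part of which may be technical.

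DNA methylation is placed on cytosines that precede a guanine (CpG sites) by the de novo enzymes Dnmt3a and Dnmt3b. Dnmt1, brought to newly copied DNA by Uhrf1, restores it after each round of replication. The Tet enzymes oxidise methylcytosine and so start its removal, Mbd2 binds methylated CpG sites, and Ezh2 is the catalytic subunit of Polycomb repressive complex 2 (PRC2), which methylates histone H3 at silenced genes. In Tregs a conserved enhancer of the Foxp3 gene is unmethylated, and loss of its methylation in mice involves Tet enzymes and Mbd2, while Ezh2 is known to act in activated Tregs.

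Mbd2 was the only one of the 9 genes read at 10 RPM (the count of a gene per 1000000 counts of its library) or more in all 6 libraries. Dnmt1 and Dnmt3a, by their mean RPM, were lower in MOG KO than in WT libraries, and so was Uhrf1, whose WT mean came almost wholly from WT replicate 3. Tet2 and Tet3 differed in opposite directions between the genotypes, the Tet2 difference resting on MOG KO replicate 1. Dnmt3b and Tet1 were not read above 1.45 RPM in any library. None of these genotype differences passed the test in edgeR.

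The libraries held 3450623 to 4361315 counts in MOG KO and 2717969 to 4472549 in WT. The targeted gene, Mog, had 0 counts in each MOG KO library and 1, 0 and 0 counts in WT, too few to check the genotype labels. The defining Treg markers were read in both genotypes, with Foxp3 at 476, 444 and 326 RPM in MOG KO replicates 1, 2 and 3, and at 690, 400 and 8.22 RPM in WT replicates 1, 2 and 3. Foxp3 was thus below 10 RPM in WT replicate 3 alone, while Il2ra, Ctla4, Ikzf2, Cd3e, Cd3d and Cd4 reached 10 RPM in all 6 libraries. Ctla4 and Cd4 were also lowest in WT replicate 3, at 74.3 and 170 RPM. Ikzf2 was highest there, at 1294 RPM, and Il2ra, Cd3e and Cd3d lay within the range of the other libraries. Ms4a1, a B cell gene singled out after its values were seen, had 87.3 RPM in WT replicate 3 and at most 1.47 RPM in the other 5 libraries. WT replicate 3 stood apart, with 2701 genes at 10 RPM or more against 3265 to 4440 in the other libraries, so the members' fold changes and the lists' medians are also given without it. Summed markers of other cells, from MOG KO to WT, were 0 to 130 and 2.21 to 206 RPM for B cells (5 genes, Cd79a and Pax5 at 0), 15.6 to 311 and 25.4 to 180 RPM for myeloid cells (6 genes, none at 0), and 28.0 to 461 and 1.98 to 91.6 RPM for stroma and endothelium (4 genes, Pdpn at 0). Of these genes Cst3, a protease inhibitor of myeloid and other cells, and Pecam1, an adhesion molecule also found on leukocytes, reached 10 RPM in 3 or more libraries, with their highest values at 167 RPM in WT replicate 3 and 461 RPM in MOG KO replicate 1. The part of other cells in the results was not tested. All 5 markers of CD8 T cells and NK cells had 0 counts. In these bulk samples fewer cells of a type and less RNA per cell cannot be told apart.

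Promoters of Dnmt1 and Uhrf1, both highest in WT replicate 3, and then of Dnmt3a and Tet3 are shown. Each is the 250 bases before an annotated start, from RefSeq on GRCm38.p6, the assembly that mm10 names. All of them lie within the annotated span of their gene, given below, and so may hold transcribed bases. Those of Dnmt1 and Uhrf1 lie downstream of the other annotated starts of these genes. Dnmt1 and Uhrf1, the maintenance pair, are known in mammals as genes induced as cells enter S phase. The consensus of E2F factors was searched in 4 spellings, TTTCCCGC, TTTGGCGC, TTTCGCGC and TTTGCCGC, on both strands, a choice made after other E2F-like words had been tried on these promoters. Each gene had it before 1 of its annotated starts (1 of 3 for Dnmt1 and 1 of 2 for Uhrf1), as did 1.86% of the 32851 starts searched, and the other 6 matched members had none. Because of that choice the share is a description and no comparison with these genes. The capitals mark the match, on chr9:20952624-20952873 (minus strand) for Dnmt1 and chr17:56304063-56304312 (plus strand) for Uhrf1.
Dnmt1: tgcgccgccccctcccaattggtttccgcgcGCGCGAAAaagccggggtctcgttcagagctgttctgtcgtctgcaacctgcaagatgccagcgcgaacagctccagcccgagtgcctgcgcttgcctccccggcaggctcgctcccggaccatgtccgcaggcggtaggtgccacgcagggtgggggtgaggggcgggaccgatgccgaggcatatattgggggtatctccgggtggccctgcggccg
Uhrf1: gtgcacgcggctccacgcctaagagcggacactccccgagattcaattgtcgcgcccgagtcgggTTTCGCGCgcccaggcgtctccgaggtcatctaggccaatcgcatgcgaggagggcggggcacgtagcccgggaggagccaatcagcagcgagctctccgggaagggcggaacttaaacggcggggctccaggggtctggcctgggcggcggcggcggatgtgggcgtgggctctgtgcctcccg

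Dnmt3a and Tet3 are shown because they were high in the same libraries. Here the capitals mark CpG sites, where Dnmt3a can place methylation and Tet3 can oxidise it. Whether any of these sites was methylated is not known. The Dnmt3a window, chr12:3806910-3807159 (plus strand), is before 1 of 3 annotated starts and held 40 CpG sites (38 and 15 before the other starts), and the Tet3 window, chr6:83441679-83441928 (minus strand), held 17, where the median start held 6. Tet2 had the most of the matched members, 51, more than 99.9% of the starts searched. The counts do not tell which start was used, and a match is a description of the letters only.
Dnmt3a: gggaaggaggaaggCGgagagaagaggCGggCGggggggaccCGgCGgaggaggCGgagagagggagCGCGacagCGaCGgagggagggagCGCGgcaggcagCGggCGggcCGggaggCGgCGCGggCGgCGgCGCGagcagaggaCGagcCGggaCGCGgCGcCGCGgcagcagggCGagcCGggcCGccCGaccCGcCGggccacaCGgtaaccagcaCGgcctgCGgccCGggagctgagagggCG
Tet3: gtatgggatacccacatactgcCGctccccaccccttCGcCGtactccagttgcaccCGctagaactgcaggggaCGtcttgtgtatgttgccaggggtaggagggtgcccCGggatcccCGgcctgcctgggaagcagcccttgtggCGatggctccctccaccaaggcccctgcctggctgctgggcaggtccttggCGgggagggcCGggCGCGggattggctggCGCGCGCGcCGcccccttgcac

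Among the writers, Dnmt1, the maintenance methyltransferase (Entrez 13433, GRCm38 chromosome 9, 20907209 to 20959888), had 1.16, 13.1 and 136 RPM in MOG KO replicates 1, 2 and 3, and 63.7, 519 and 1048 RPM in WT replicates 1, 2 and 3. The 3 WT libraries were spread over more than 10-fold, and MOG KO replicate 3 was above WT replicate 1, so the groups overlapped. Its log2 fold change, MOG KO minus WT, was -3.52 ± 2.00 (SE, 3 libraries a group), its 95% interval ran from -8.18 to 1.13, and its adjusted p was 1.00 in edgeR. Without WT replicate 3 it was -2.52, and without MOG KO replicate 3 it was -6.34.

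Uhrf1, the factor that recognises hemimethylated DNA and recruits Dnmt1 (Entrez 18140, chromosome 17, 56303321 to 56323486), had 0.231, 0.229 and 0.290 RPM in MOG KO, which is 1 read in each library, and 1.10, 2.24 and 1002 RPM in WT. WT replicate 3 alone held 3536 of the 3549 WT counts. The genotypes did not overlap, as for 3.38% of the 12317 genes with a count that lay lower in every MOG KO library than in every WT library, but WT replicate 1 held 3 reads, which is at the floor like the MOG KO libraries. Pooled, the WT over MOG KO ratio was 1340 with a counting interval of 458 to 6500, an interval for the counting alone. Without WT replicate 3 it was 7.32 (2.01 to 40.02), from 13 WT reads and 3 MOG KO reads. Uhrf1 was below the expression filter, and in the unfiltered edgeR fit its log2 fold change was -10.28 ± 3.92 (adjusted p = 0.449). This value was -2.67 (adjusted p = 0.745) without WT replicate 3.

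Dnmt3a, a de novo methyltransferase (Entrez 13435, chromosome 12, 3806007 to 3914443), had 0.693, 0.229 and 2.32 RPM in MOG KO and 365, 2.24 and 661 RPM in WT. It was high in WT replicates 1 and 3 and at a few reads in the other libraries, where WT replicate 2 lay just below MOG KO replicate 3. It too was below the filter, with a log2 fold change of -8.38 ± 3.61 in the unfiltered edgeR fit (95% interval -15.46 to -1.31, adjusted p = 0.449). DESeq2 put Dnmt3a past the threshold, lower in MOG KO (-8.83 ± 2.28, adjusted p = 0.00379), and over all the alternatives tried its adjusted p ran from 0.00379 to 1. DESeq2 called 10.2% of the 4648 genes it gave an adjusted p lower in MOG KO, so the call for Dnmt3a stands beside many others by that tool. Without WT replicate 3 the unfiltered value was -7.47 (adjusted p = 0.617).

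Dnmt3b, the other de novo enzyme (Entrez 13436, chromosome 2, 153649450 to 153687730), had 0 counts in the 3 MOG KO libraries, which allows up to 0.688 to 0.869 RPM, and 1.10, 0 and 0 RPM in WT. The WT value is 3 reads, at the floor of that library, and no fold is given.

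Summed over the 4 writers, MOG KO libraries held 2.08, 13.5 and 139 RPM, and WT libraries 430, 523 and 2712 RPM. Each WT library was above each MOG KO library, although the groups overlapped for Dnmt1, Dnmt3a and Dnmt3b taken singly. Of single genes with a count, 3.38% of 12317 lay lower in every MOG KO library, and no such share was worked out for sums. Different genes made up the writers' sum in each WT library. Dnmt3a gave most of it in WT replicate 1, Dnmt1 nearly all in WT replicate 2, and Dnmt1, Uhrf1 and Dnmt3a together in WT replicate 3. The S phase and proliferation list of 20 genes had its highest sum in the same library, 8294 RPM in WT replicate 3. It had 2143, 4108 and 2270 RPM in MOG KO and 1323 and 3409 RPM in the other WT libraries. The largest parts in WT replicate 3 were Stmn1, Top2a and Mki67 (2357, 1730 and 1441 RPM). Mcm2, Mcm4, Mcm6, Mcm7, Tk1, Ccnb1 and Ccnb2 had 1.42 RPM or less there, and E2f1, which encodes an E2F factor, had 0 counts in every library. Of the 20 genes, 12 were at 10 RPM or more in WT replicate 3 and 13 in WT replicate 2. The proliferation sum of WT replicate 1 was below that of each MOG KO library, and that of WT replicate 2 was below that of MOG KO replicate 2. In the remaining pairs of a WT and a MOG KO library it was higher in WT. The part of proliferation in the writers' values was not tested.

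**Figure D1:**
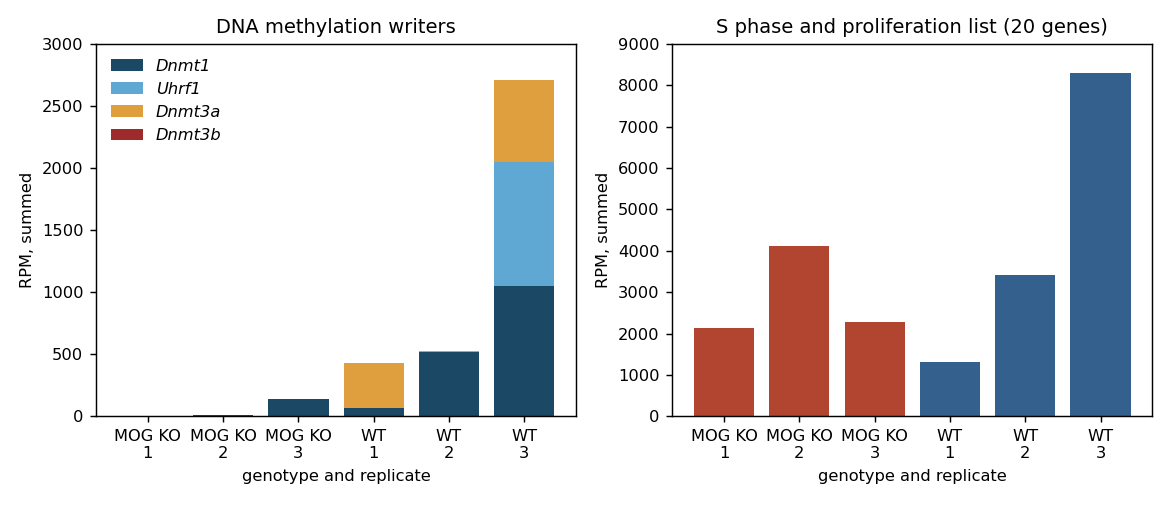
Summed RPM in each library, MOG KO left and WT right, both axes linear from 0. The left plot stacks the 4 DNA methylation writers, which sum to 2712 RPM in WT replicate 3 and to 139 RPM or less in MOG KO, and the right plot gives the 20 genes of S phase and proliferation, highest in WT replicate 3 at 8294 RPM.

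Among the erasers, Tet2 (Entrez 214133, chromosome 3, 133463679 to 133545139), a methylcytosine dioxygenase, had 278, 5.50 and 9.85 RPM in MOG KO and 0.736, 0 and 17.3 RPM in WT. MOG KO replicate 1 was high and the other 5 libraries were at 17.3 RPM or less, with WT replicate 3 above MOG KO replicates 2 and 3. The log2 fold change was 3.77 ± 2.88 (95% interval -2.95 to 10.49, adjusted p of 1.00 in edgeR), and it was 0.17 without MOG KO replicate 1 and 7.99 without WT replicate 3.

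Tet3 (Entrez 194388, chromosome 6, 83362373 to 83459084), a related dioxygenase, had 0.231, 30.5 and 2.03 RPM in MOG KO and 244, 2.91 and 479 RPM in WT. As with Dnmt3a, WT replicates 1 and 3 were high, and WT replicate 2 lay among the MOG KO values. Its log2 fold change was -4.58 ± 2.74 (95% interval -10.95 to 1.80, adjusted p of 1.00 in edgeR), and -3.46 without WT replicate 3 and -7.84 without MOG KO replicate 2.

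Tet1 (Entrez 52463, chromosome 10, 62804570 to 62908996), best known from embryonic stem cells, had 0.231, 0.459 and 1.45 RPM in MOG KO and 0.368, 0 and 0 RPM in WT. These are 8 reads in MOG KO and 1 read in WT over all libraries, too few for a fold. Summed over the Tet genes, MOG KO libraries held 278, 36.5 and 13.3 RPM and WT libraries 245, 2.91 and 497 RPM, so the groups overlapped. The main Tet gene was Tet2 in MOG KO replicates 1 and 3, and Tet3 in MOG KO replicate 2 and all WT libraries.

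Mbd2, the methyl-CpG reader of the NuRD repressor complex (Entrez 17191, chromosome 18, 70568189 to 70626131), had 279, 354 and 134 RPM in MOG KO and 235, 189 and 359 RPM in WT. The values lay within 2.68-fold of each other over all 6 libraries, and both genotypes covered nearly the same range. The means were 256 ± 112 RPM in MOG KO and 261 ± 87.5 RPM in WT (SD, n = 3 per group). The log2 fold change was -0.13 ± 1.35, 0.30 without WT replicate 3, and its 95% interval of -3.24 to 2.99 does not exclude a several-fold difference in either direction. Of 2046 tested genes whose mean RPM was within 2-fold of that of Mbd2, 9.78% varied less within the genotypes on the log2(RPM + 1) scale, and 21.8% were likewise at 10 RPM or more in all 6 libraries.

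Ezh2 (Entrez 14056, chromosome 6, 47530139 to 47595341) had 0, 4.59 and 212 RPM in MOG KO and 41.9, 5.37 and 83.9 RPM in WT. The highest and the lowest of the 6 libraries were both MOG KO, replicate 3 and replicate 1, and the groups overlapped. The log2 fold change was 0.63 ± 2.63 (95% interval -5.50 to 6.76, adjusted p of 1.00 in edgeR), and it was -4.34 without MOG KO replicate 3 and 1.61 without WT replicate 3. The annotated exons of Ezh2 overlap those of Gm26625, a long non-coding RNA gene on the opposite strand, over 92 of the 2802 exon bases of Ezh2. The strand setting of the counting is not given, so reads within that overlap cannot be told apart. No other member has an exon in common with another annotated gene.

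**Figure D2:**
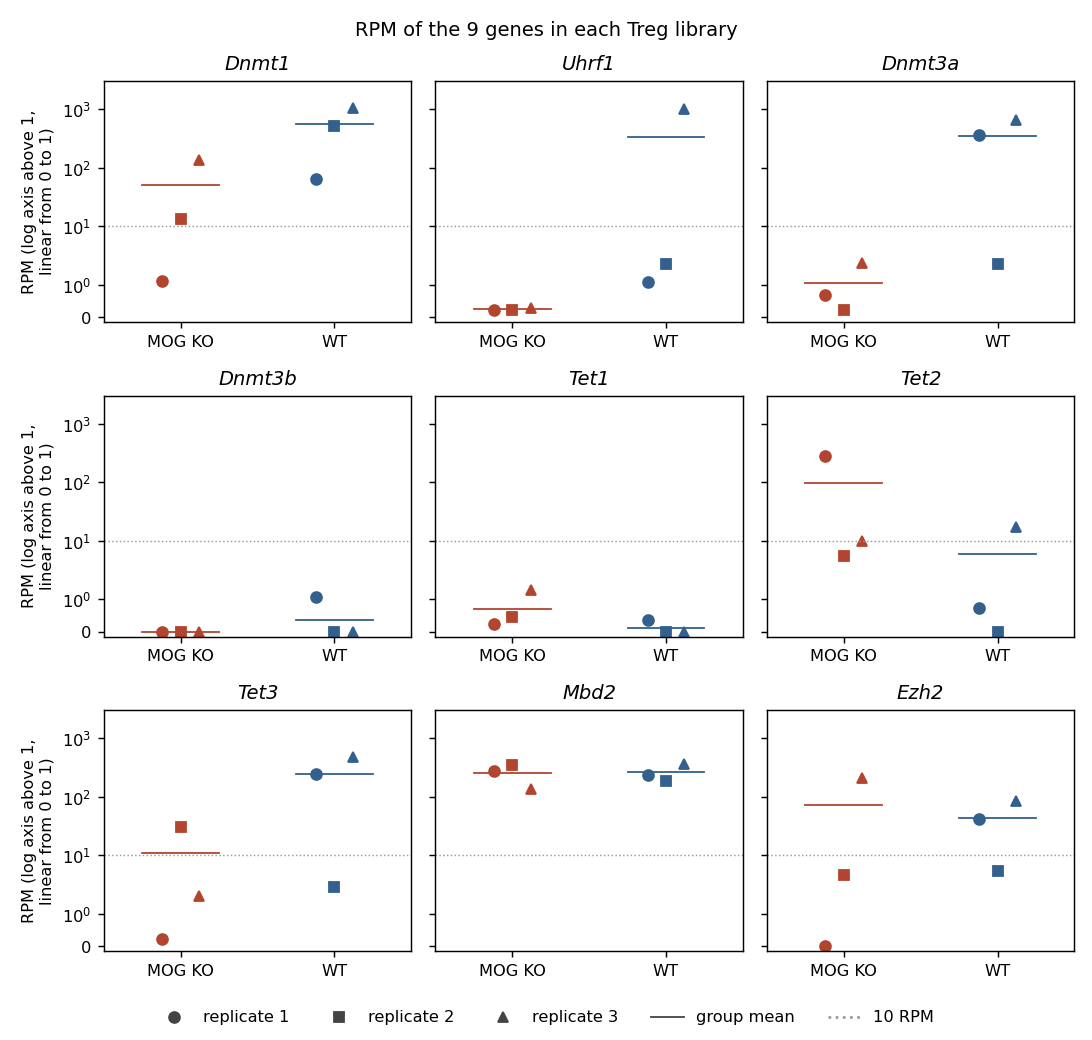
RPM of each of the 9 genes, with 1 point per library, the shape giving the replicate and the short line the group mean, MOG KO left and WT right. The axis is logarithmic above 1 RPM and linear below it, and the dotted line is 10 RPM. Mbd2 stays between 134 and 359 RPM, Dnmt1 spans 1.16 to 1048 RPM, and Dnmt3a, Uhrf1, Tet2, Tet3 and Ezh2 span from under 1 RPM to 212 RPM or more.

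In edgeR, 0 of the 5 tested members (Dnmt1, Tet2, Tet3, Mbd2 and Ezh2) passed an adjusted p of 0.05, as did 0% of the 4088 genes tested. None of these 5 had an unadjusted p under 0.05, and limma-voom also called none. In the unfiltered fit of 12317 genes, of which 0% passed, Uhrf1 and Dnmt3a had an unadjusted p under 0.05 (0.00875 and 0.0202), both lower in MOG KO, as did 6.46% of those genes. DESeq2 gave 5 members an adjusted p and called Dnmt3a, against 16% of 4648 genes called in either direction. It gave no adjusted p for Uhrf1, Tet2, Dnmt3b and Tet1, and for Uhrf1 and Tet2 no unadjusted p either.

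**Figure D3:**
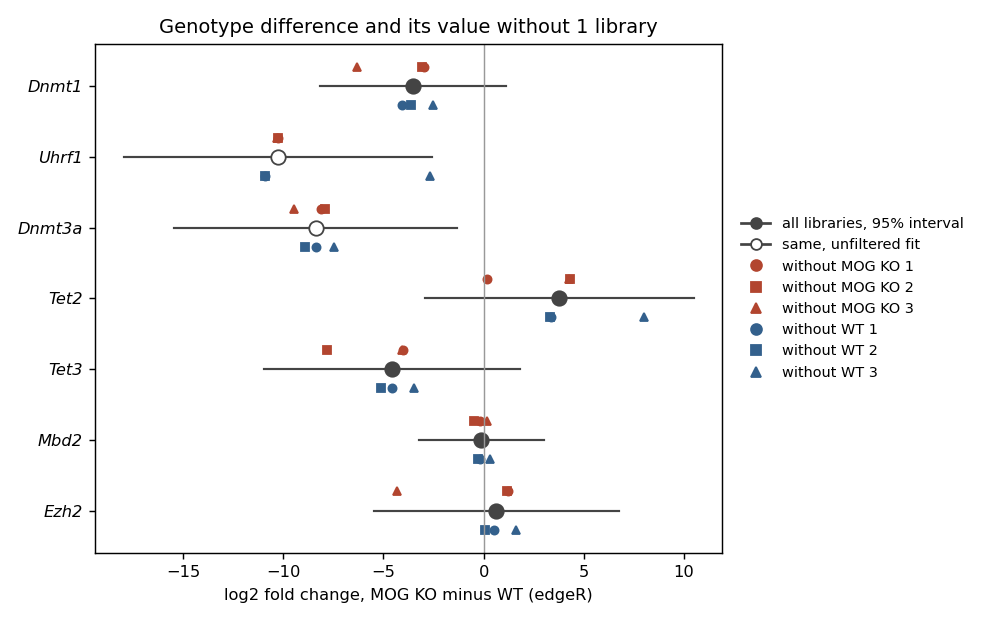
Log2 fold change of 7 members, MOG KO minus WT, with the 95% interval of edgeR (filled circles, filtered fit, and open circles, unfiltered fit). Coloured symbols give the value when 1 library was left out, MOG KO libraries above and WT libraries below the interval. Uhrf1 moves to -2.67 without WT replicate 3, Tet2 to 0.17 without MOG KO replicate 1 and Ezh2 to -4.34 without MOG KO replicate 3.

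Levels of the 9 genes were compared per kilobase of annotated exon. By the median RPM per kilobase over the 6 libraries the order was Mbd2 (105), Dnmt1 (15.9), Ezh2 (8.44), Tet3 (1.42), Tet2 (0.834), Dnmt3a (0.230), Uhrf1 (0.190), Tet1 (0.0208) and Dnmt3b (0). The ranges of all neighbours in this order overlapped. Mbd2 had the highest RPM per kilobase of the members in 3 of 6 libraries, and Dnmt1, Ezh2 and Uhrf1 in 1 each. Uhrf1 was the extreme case, with 273 RPM per kilobase in WT replicate 3, the highest value of any member, and a median near the bottom of the list.

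Members were mostly either read well or nearly absent in a library. Of their 54 values, 22 were at 10 RPM or more, 28 were under 3 RPM and 4 (7.41%) lay between. These values include Dnmt3b and Tet1, which were below 10 RPM in every library. Over the 7909 genes present at 10 RPM in some library, a set without such genes, a smaller share of values, 3.09%, lay between. MOG KO libraries held 2, 3 and 3 members at 10 RPM or more and WT libraries 5, 2 and 7. Among those 7909 genes 8.9% were present in all 6 libraries. WT replicate 3 had the highest RPM for 5 of the 9 members (Dnmt1, Uhrf1, Dnmt3a, Tet3 and Mbd2) and for 16.7% of the 7909 genes, although it had the fewest genes present.

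Across the 6 libraries the members that were most alike in log2(RPM + 1) were Dnmt3a and Tet3 (Pearson r = 0.87, and 0.77 over the 5 libraries without WT replicate 3), out of 21 pairs. Dnmt1 and Uhrf1 had r = 0.65, and Dnmt1 and Tet2 ran in opposite directions (r = -0.59, and -0.85 without WT replicate 3). These are descriptions over 6 points, in which all genes of a library share its depth and its number of genes present. Among all tested genes the nearest pattern to Dnmt1 was that of Eif3c, a translation initiation factor subunit (r = 0.98), and that to Tet3 was Wdr12, a ribosome assembly factor (r = 0.99). Rrp1, a ribosomal RNA processing factor, was nearest to Mbd2 (0.97), Son, a splicing factor, to Ezh2 (0.96), and Rps16, a ribosomal protein gene whose reads may be shared with near-identical copies, to Tet2 (0.96). The nearest genes were not alone, as 5 to 33 of 4087 genes reached r = 0.9 or more with each of these members over so few libraries.

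The partners of these genes were read in lists of PRC2 and PRC1 subunits, NuRD, other methyl-CpG readers, partners of DNA methylation, demethylation and base excision repair, the methyl donor cycle, S phase genes and the demethylases of the Polycomb histone mark. Of 102 genes in these 9 lists, 47 were tested in edgeR and 0 passed, with 4 at an unadjusted p under 0.05, as had 5.11% of the 4088 genes tested. The median log2 fold change of the 47 was -0.02, against 0.06 over all genes tested. DESeq2 called 13 of 57, where its share over all genes was 16%. It called Phf1, Ring1 and Pcgf1 higher in MOG KO, and Cbx8, Phc2, Phc3, Mta1, Ehmt2, Ahcy, Rrm1, Tyms, Tk1 and Ccnb2 lower.

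Among the other PRC2 subunits 9 of 10 were tested, 5 with positive and 4 with negative values (median 0.27), against 4 and 5 (median -0.0017) without WT replicate 3, and 1 was present in all 6 libraries. Phf1, a Polycomb-like accessory subunit, had 233, 31.0 and 318 RPM in MOG KO and 1.10, 0.224 and 0.567 RPM in WT (log2 fold change 8.14 ± 2.50, adjusted p = 0.602 in edgeR). Every MOG KO library was above every WT library, as for 5.97% of the genes tested in edgeR. Mtf2, another Polycomb-like subunit, had 1.62, 33.9 and 2.90 RPM in MOG KO and 50.04, 2.01 and 454 RPM in WT (-3.87 ± 2.60), again highest in WT replicate 3.

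Among the PRC1 subunits 9 of 18 were tested, 5 positive and 4 negative (median 0.24). Without WT replicate 3, 14 were tested, 5 positive and 9 negative (median -0.29). Pcgf1, a RING finger subunit of a variant PRC1, had 119, 131 and 126 RPM in MOG KO and 0.368, 0 and 0.283 RPM in WT (8.93 ± 2.62, adjusted p = 0.602 in edgeR). The MOG KO values were close to each other, and each WT library held 1 read or none. Phc2, a polyhomeotic subunit, had 0.693, 0.459 and 0.580 RPM in MOG KO and 171, 256 and 9.35 RPM in WT (-7.90 ± 2.52, adjusted p = 0.627 in edgeR), lower in every MOG KO library, as for 4.57% of the genes tested. Kdm6a and Kdm6b, which remove the Polycomb mark, were below the filter and reached 47.8 and 20.9 RPM at most.

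Beside Mbd2, 3 of 7 other methyl-CpG readers were tested (1 positive, 2 negative, median -1.16), and 4 without WT replicate 3 (2 positive, 2 negative, median -0.64). Mbd1, a reader that binds methylated CpG sites, had 255, 714 and 137 RPM in MOG KO and 26.1, 447 and 1.42 RPM in WT (1.25 ± 1.98). In the NuRD complex, through which Mbd2 acts, 9 of 12 genes were tested, 4 positive and 5 negative (median -0.44), and 2 were present in all 6 libraries. The NuRD genes without WT replicate 3 were 5 positive and 5 negative (median 0.014). Hdac1, its deacetylase, had 1.85, 284 and 121 RPM in MOG KO and 4.78, 2.91 and 29.2 RPM in WT (3.33 ± 2.36), and Mta3 had 405, 321 and 2.61 RPM in MOG KO and 34.2, 79.1 and 0.283 RPM in WT (2.67 ± 2.45).

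Among 12 partners of DNA methylation 7 were tested, 5 positive and 2 negative (median 0.77, and 4.996 without WT replicate 3). Ehmt2, a histone H3 methyltransferase, had 7.63, 2.98 and 6.96 RPM in MOG KO and 6.25, 416 and 1024 RPM in WT (-6.50 ± 2.23, adjusted p = 0.705 in edgeR), so that WT replicate 1 was at the MOG KO level. Usp7, a deubiquitinase that binds Dnmt1 and Uhrf1, had 450, 169 and 0.869 RPM in MOG KO and 1.84, 11.4 and 7.37 RPM in WT (4.804 ± 2.52). Of 17 genes of demethylation and base excision repair 8 were below 10 RPM in every library and 1 was tested. That gene, Ogt, a sugar transferase that binds Tet proteins, was present in all 6 libraries at 459, 673 and 122 RPM in MOG KO and 349, 640 and 264 RPM in WT (-0.04 ± 0.93). In that list 2 genes were tested without WT replicate 3 (median 2.26).

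Among 8 genes of the methyl donor cycle 3 were tested, 2 positive and 1 negative (median 0.29), against 1 positive and 2 negative (median -0.28) without WT replicate 3. Mat2a, which makes the methyl donor, had 276, 1.61 and 314 RPM in MOG KO and 3.31, 301 and 1.98 RPM in WT, and Mthfd2, a folate enzyme, had 0.462, 293 and 216 RPM in MOG KO and 276, 146 and 3.40 RPM in WT. Of the S phase and proliferation genes 10 of 20 were tested, 3 positive and 7 negative (median -0.69). Without WT replicate 3, 8 of 14 were positive and the median was 0.52. Stmn1, which destabilises microtubules, was read at 2.77, 271 and 165 RPM in MOG KO and 7.73, 78.0 and 2357 RPM in WT, and Mcm6, a subunit of the replicative helicase, had 425, 456 and 361 RPM in MOG KO and 1.84, 307 and 0.567 RPM in WT.

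**Figure D4:**
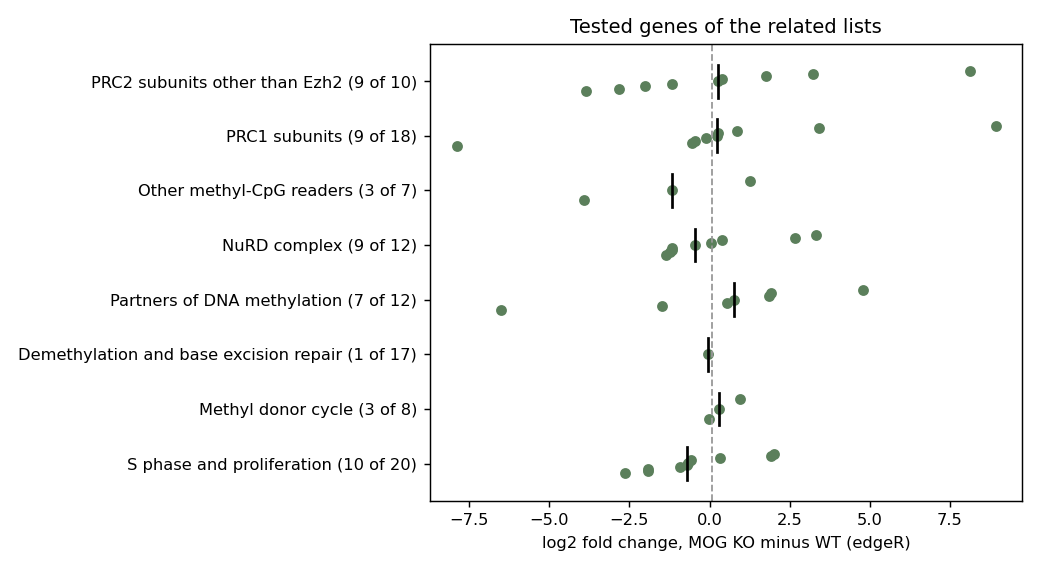
Log2 fold change, MOG KO minus WT, of the tested genes in 8 related lists, with the number tested of the number listed. Each point is a gene, the black bar is the list's median and the dashed line is the median of all tested genes, 0.06. Points spread to both sides in most lists, and the medians lie between -1.16 and 0.77.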

How the data were processed

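The authors deposited raw read counts per gene and RPM (counts per 1000000 counts of the library) for 6 libraries of 100-base single reads (SMARTer V3 and NexteraXT, per the labels' protocols), with no molecular identifiers. STAR 2.3.1, R 3.2.2 and mm10 are listed per the submitters' processing notes, without the counting function, gene models or strand setting. Each deposited RPM value equals the count divided by the library's total, times 1000000. Genes and related lists were chosen with earlier results of these data known.

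Counts were tested with edgeR 4.0.16 (R 4.3.3; quasi-likelihood, robust, TMM, genes kept by filterByExpr), without covariates, with Benjamini-Hochberg adjustment over all genes tested and a threshold of 0.05. SE is the log2 fold change divided by the root of F. Genes below the filter were fitted with no filter. DESeq2 1.42.0, limma 3.58.1 (voom), other scalings and filters, a replicate block and leaving out each library were alternatives. The fit was tested on simulated data. A gene was called present at 10 RPM, and a count of 0 allows up to 3 counts. Intervals and floors cover counting error only. Lengths are exon unions of GENCODE M21. All 9 members were named, with the 2 tested genes of smallest unadjusted p in each related list, the tested gene most correlated with each tested member, and preset Treg markers and other markers at 10 RPM in 3 or more libraries. A gene that this rule names is not reported here. Kdm6a and Kdm6b were named because neither was tested. The E2F words were chosen after other E2F-like words had been tried on these promoters. Library totals limit precision to about 0.671 to 1.10 RPM at the floor.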

Additional observations from a re-analysis of the deposited data

How the results depend on the processing

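Dnmt3b and Tet1 stayed at or near the floor of 3 counts, where a low level and none cannot be told apart. DESeq2 called 745 genes over the whole table against 0 in edgeR, 13 genes of the related lists against 0, and Dnmt3a among the members (-8.83). The cause was not tested. At a presence level of 1 RPM, 2 members were present in all 6 libraries against 1 at 10 RPM, and leaving out 1 library gave 1 to 2. The sign of Mbd2 turned under limma-voom (0.066) and ranged from -0.47 to 0.30 without 1 library, and the sign of Ezh2 turned under limma-voom (-2.35) and ranged from -4.34 to 1.61 without 1 library. With a replicate block the Ezh2 value was -1.14, and 0 genes passed the threshold, as without it. Deviations from the group mean had correlations of -0.022, -0.002 and -0.018 between libraries with the same number. Between libraries with different numbers they ran from -0.016 to 0.037. The labels state no pairing, and with so wide a spread between libraries these correlations cannot tell whether there was one. Dnmt1, Dnmt3a, Uhrf1, Tet2 and Tet3 kept their sign under every alternative run. For Tet2, however, the value without MOG KO replicate 1 was 0.17 ± 2.82, which shows no direction. For Dnmt3a and Uhrf1, other scalings and the block in the unfiltered fit were chosen after seeing the data. Limma-voom gave no value for those genes, and the 50-count filter none for Tet2.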
